A study of Sus scrofa with 79 samples.

Results

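The genes described here are the proteins that hand bacterial lipopolysaccharide to its receptor, the adaptor that passes the signal on, and the sensors that read bacterial cell wall inside the cell. They are LBP, CD14, LY96, MYD88, NOD1 and NOD2. Their probes are those whose RefSeq accession maps to one of these symbols. All 6 were on the array, out of 2389 genes that could be given a symbol, and they were read by 11 of 43603 probes.

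LBP is a soluble protein made mainly in liver and also in intestinal epithelium, which picks lipopolysaccharide out of bacterial membranes and passes it to CD14. CD14 is a membrane-anchored co-receptor of monocytes, macrophages and neutrophils, and LY96, also named MD-2, is the small partner of Toll-like receptor 4 that binds lipopolysaccharide. MYD88 is the adaptor shared by nearly all Toll-like receptors and the receptors of interleukin 1 and interleukin 18, while NOD1 and NOD2 are cytosolic proteins that recognise fragments of peptidoglycan and signal through RIPK2.

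Gene expression was measured in pigs of 3 treatments. T1 piglets were left undisturbed, whereas T2 piglets were given the macrolide antibiotic tulathromycin by injection on day 4. The T3 group was given this drug too and on that day also went through docking, clipping and weighing, which are common management procedures. Jejunum and ileum were taken at days 8, 55 and 176 and blood at day 8, and each array, 79 in all, carried pooled RNA from pigs that shared a treatment. At day 8 a pool held 4 piglets. The paper describes day 8 alone and gives no number of animals per pool for days 55 and 176. The 21 groups of tissue, day and treatment had 4 pools each, except ileum T2 at days 8 and 55, jejunum T2 at days 55 and 176 and ileum T3 at day 176, which had 3 pools.

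Signal strength differed between the kinds of sample, with 34.8% to 44.1% of the probes well above background on the blood arrays and 42.4% to 75.2% on the tissue arrays. The tissue arrays of each age lay on slides that held no tissue of another age, so that age and slide cannot be told apart, while jejunum T3 of day 55 shared a slide with blood T1 of day 8. Ileum T3 of day 55 lay alone on 1 slide with 42.4% to 52.0% of its probes well above background. Ranked over all genes, 8 of 79 arrays stood apart from the other arrays of their tissue and day, among them ileum T1 pool 11 and jejunum T2 pool 8 of day 8 and jejunum T2 pool 8 of day 176. The 8 measured epithelial genes had a summed log2 signal of 17.9 to 19.6 in tissue and 7.83 to 9.67 in blood. At day 8 the 3 measured genes typical of jejunum (APOA4, SLC2A2 and CYP3A29) did not differ between both tissues by the test used, and FABP6, the bile acid carrier of ileal cells, had a log2 difference of 0.06 with an SE of 1.30. At days 55 and 176 all 3 jejunal genes were lower in ileum, CYP3A29 by −2.29 and −2.19 (adjusted p 1.15e-06 and 3.74e-06, limma), and FABP6 had differences of 0.99 and 2.14 that did not pass the test.

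The tissue and day of the arrays of days 8 and 55 rest on the labels of the scanner files, and the column names of the deposited log2 table go against these labels. None of the 45 columns named for a tissue of day 8 or 55 matched the array of its own name, whereas all 34 of blood and day 176 did. The 11 columns named ileum of day 8 matched jejunum arrays of day 8, the 11 named ileum of day 55 matched ileum arrays of day 8, the 11 named jejunum of day 55 matched ileum arrays of day 55, and the 12 named jejunum of day 8 matched jejunum arrays of day 55. Treatment and pool number were the same in 44 of these 45 matches. The columns of both tissues of day 176 were centred together, with a median of 0 for each probe, and the columns of days 8 and 55 that were centred together matched arrays of a single day by the scanner labels.

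Under the names of the table, FABP6 and CD79A, a chain of the B cell receptor, were lower in ileum at day 55 by −7.61 and −5.82 and CYP3A29 was higher by 1.30. By the scanner labels the same differences, over the 79 arrays, were 1.24, 3.92 and −2.33, and at day 176, where both sets of names are the same, they were 2.25, 4.80 and −1.93. The scanner labels are used throughout, and every tissue value of day 8 or day 55 rests on them. Values under the names of the table are given where they change a result.

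The 6 genes were not read equally well. All 4 LY96 probes were well above background on 79 of 79 arrays, the LBP probe on 74, the MYD88 probe on 77, and the CD14 probes A_72_P050971 and A_72_P756625 on 78 and 52. The NOD1 probe was well above background on only 5 of 79 arrays, so that its values are mostly upper limits. The NOD2 probes A_72_P077986 and A_72_P538218 were well above background on 51 and 50 arrays and on 0 of 12 blood arrays. Levels of different genes were not compared, since each probe binds with its own strength.

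Levels over tissues and ages are given as log2 signal after quantile normalization over all 79 arrays, each tissue and day with its 11 or 12 pools of all treatments. In such bulk samples fewer cells of a type and less RNA per cell cannot be told apart. LBP, the carrier of lipopolysaccharide, ran from strong signal in the 8-day-old intestine to a low one at day 176. In jejunum the lowest, median and highest pools were 11.05, 11.92 and 12.74 at day 8, then 8.06, 8.80 and 10.15 at day 55, and 4.88, 6.67 and 7.76 at day 176. In ileum they were 8.76, 11.30 and 12.30, then 6.86, 8.16 and 9.47, and 4.68, 6.32 and 8.08. In blood they were 4.93, 7.22 and 8.12, with 7 of 12 arrays well above background. In jejunum the pools of the 3 ages did not overlap, and in ileum those of day 8 and day 176 did not.

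CD14 was highest in blood, where the lowest, median and highest pools had a log2 signal of 9.47, 10.35 and 11.003. In ileum the same values were 4.41, 4.97 and 6.95 at day 8, 6.51, 6.95 and 7.56 at day 55, and 6.60, 7.87 and 8.54 at day 176. In jejunum they were 4.42, 5.57 and 7.09, then 4.95, 5.75 and 6.56, and 3.87, 5.41 and 6.55. CD14 signal thus stood higher at each later age in ileum, while the jejunum pools of the 3 ages covered much the same range.

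LY96 in blood had 11.15, 11.57 and 11.93 for the lowest, median and highest pool, and the ileum of day 176 reached the same level with 11.10, 11.35 and 12.68, the highest pool of all. At day 8 the ileum pools had 7.98, 8.62 and 10.01 and the jejunum pools 7.63, 8.37 and 9.15. At day 55 the ileum pools had 10.54, 10.66 and 11.24 and the jejunum pools 9.72, 10.03 and 10.86, and at day 176 the jejunum pools had 9.79, 10.15 and 10.63. All pools of both tissues at day 55 lay above all pools of the same tissue at day 8.

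MYD88 spanned a smaller range. The lowest, median and highest log2 signals were 7.40, 8.02 and 8.28 in blood, 6.73, 7.44 and 7.95 in jejunum of day 8, and 4.55, 7.13 and 7.55 in ileum of day 8. At day 55 jejunum covered 5.23 to 8.35 with a median of 7.45, the widest spread of this gene in any tissue and day (SD 1.18, n = 11), and ileum covered 5.66 to 7.16 with a median of 6.27. At day 176 the values were 4.52, 5.53 and 6.40 in jejunum and 4.98, 5.84 and 6.22 in ileum. The wide spread in jejunum at day 55 followed the treatments, which are described further on.

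NOD2 signal was low throughout, with medians of 4.30, 4.33 and 3.08 in jejunum and 4.31, 4.51 and 4.02 in ileum at days 8, 55 and 176. At least 1 of both NOD2 probes was well above background on 12 of 12 jejunum and 11 of 11 ileum arrays of day 8, on 7 of 11 of each at day 55, and on 8 of 11 and 10 of 11 at day 176. NOD1 means lay between 1.98 ± 0.54 in jejunum of day 176 and 2.95 ± 0.65 in ileum of day 176 (SD, n = 11 each), with 1 jejunum array of day 8 and 2 ileum arrays of each of days 8 and 176 well above background.

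**Figure D1:**
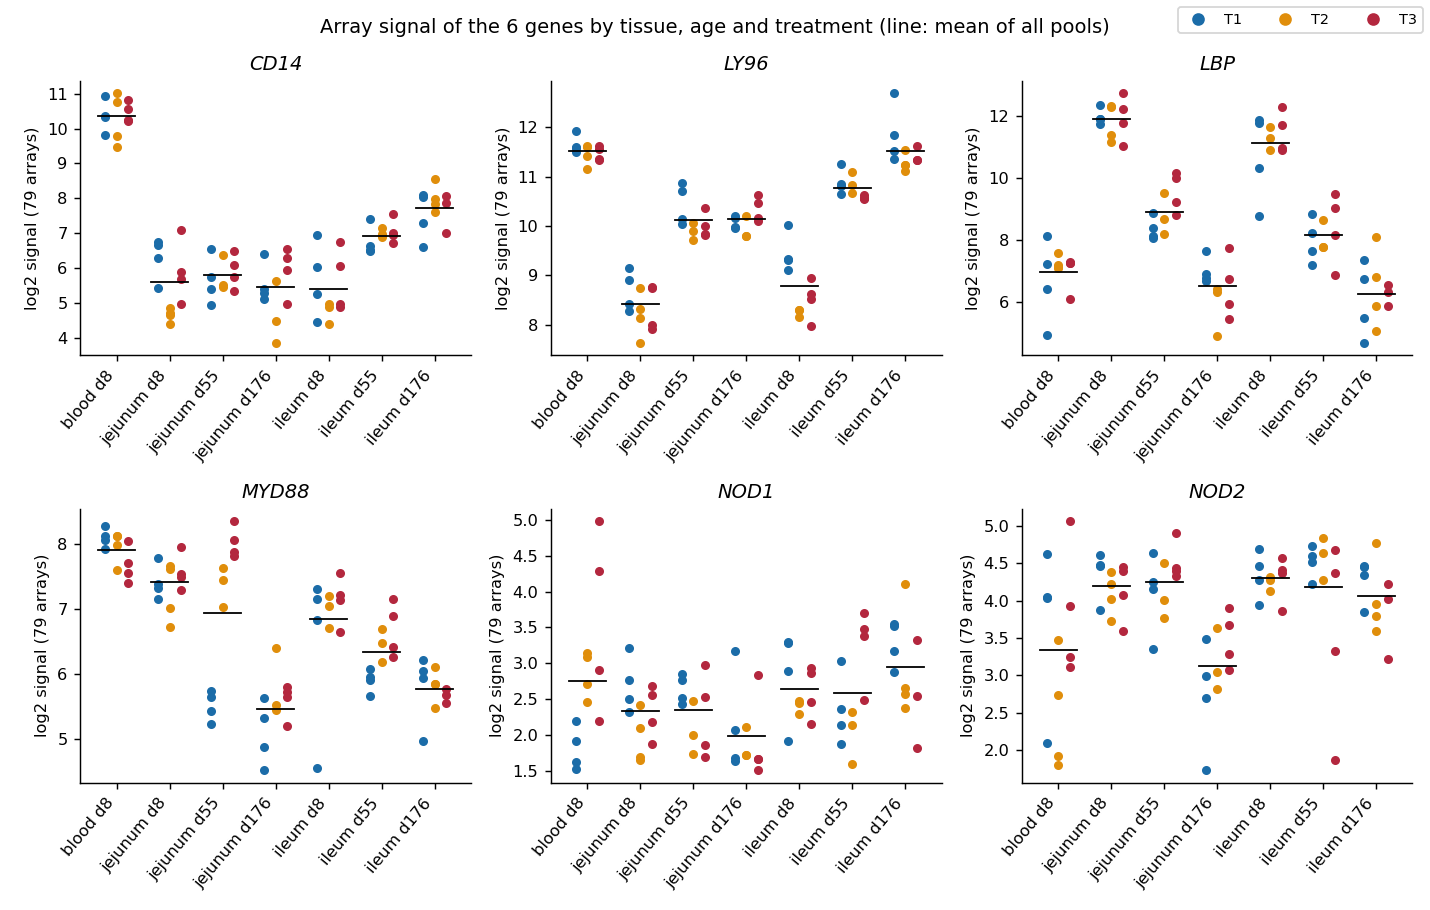
Log2 signal (normalized over 79 arrays) of each gene, 1 point per pool, coloured by treatment, over blood and both tissues at each day; the line is the mean of all pools of that tissue and day. LBP is seen to run from medians of 11.92 and 11.30 at day 8 to 6.67 and 6.32 at day 176, and CD14 is highest in blood, while LY96 has the same level in blood and in ileum of day 176 (medians of 11.57 and 11.35).

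Ordered by mean level, some neighbouring tissues and ages were told apart (adjusted p below 0.05 and a fold above 1.5 in limma, Benjamini-Hochberg) and others were not. Over the 6 genes 78 of 126 pairs of tissue and age were told apart, beside 43.6% over all genes and pairs, with 16 of 21 pairs for LBP, 15 for CD14, 18 for LY96, 14 for MYD88, 5 for NOD1 and 10 for NOD2. For LBP the order was both tissues at day 8 (adjusted p between them 0.313, limma), both at day 55 (0.0821), then blood and both at day 176 (0.164 and 0.751), and the steps between these 3 sets passed the test (5.03e-07 and 0.00194, limma). For CD14 blood stood above ileum of day 176, which stood above ileum of day 55, which stood above the other 4 tissues and ages, none of whose neighbours were told apart (2.54e-14, 0.0218 and 3.01e-04 for the 3 steps, limma). For LY96 blood and ileum of day 176 came first (adjusted p between them 0.954), then ileum of day 55, then jejunum of days 176 and 55 (0.975), and last both tissues of day 8 (0.281, limma). No neighbours in the order of MYD88 or of NOD1 were told apart, and for NOD2 only ileum of day 176 and blood were (0.00811, limma).

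Blood and 8-day-old intestine differed most in the proteins that bind lipopolysaccharide. CD14 and LY96, both carried by circulating monocytes and neutrophils, had much more signal in blood, whereas LBP had much more signal in the intestine. CD14 was 26.7-fold lower in jejunum than in blood (log2 difference −4.74, 95% interval −5.24 to −4.24, adjusted p 2.27e-26) and 31.8-fold lower in ileum (−4.99, −5.51 to −4.48, 6.69e-27, limma). LY96 was 8.64-fold lower in jejunum (−3.11, adjusted p 3.99e-31) and 6.94-fold lower in ileum (−2.79, 4.80e-28, limma). The pools of blood and tissue did not overlap for either gene. Under the names of the deposited table LY96 in jejunum differed from blood by −1.42 and LBP by 1.94, both called. The arrays named jejunum of day 8 there are jejunum arrays of day 55 by the scanner labels.

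LBP was 30.8-fold higher in jejunum than in blood (log2 difference 4.95, 95% interval 4.27 to 5.62, adjusted p 4.55e-21) and 18.2-fold higher in ileum (4.19, 3.50 to 4.88, 2.72e-17, limma), again with no overlap. MYD88 was 2.07-fold lower in ileum than in blood (−1.05, 8.69e-07, limma) and its difference in jejunum was under the fold threshold (−0.50, adjusted p 0.00988, 1.41-fold). NOD2 passed the test in both tissues (0.85 and 0.96, adjusted p 0.00103 and 3.83e-04, limma), but it was not well above background on any blood array, no lower limit of the fold above 1 could be given, and its direction turned with the scaling and with the background correction. NOD1 differences were −0.42 and −0.13 and did not pass (adjusted p 0.0791 and 0.598, limma).

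In all, 9 of the 12 differences between blood and tissue were called, beside 75.6% of all genes in jejunum and 74.2% in ileum, so that a difference between these samples was the rule. The log2 75th percentile of the raw signal was 4.79 to 5.60 on the blood arrays and 8.40 to 10.16 on the day 8 tissue arrays, and scaling by it moved the median difference of all genes to −1.39 in jejunum and −1.55 in ileum. Under that scaling CD14, LY96, LBP and MYD88 kept their directions, with −4.87, −3.07, 4.77 and −0.51 in jejunum and −5.29, −2.74, 4.06 and −1.18 in ileum. The 5 measured neutrophil genes had a summed log2 signal of 15.4 to 16.6 in blood and 8.67 to 12.4 in the tissues of day 8, and the 10 measured monocyte and macrophage genes one of 15.4 to 16.5 in blood and 14.0 to 16.4 in tissue. The part of the cell types in these differences was not tested.

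With age, LBP and LY96 moved in opposite directions in both tissues. Over the steps from day 8 to day 55 and from day 55 to day 176, 5 of 12 differences of the 6 genes were called in jejunum, beside 30.3% and 29.8% of all genes at the earlier and the later step, and 6 of 12 in ileum, beside 40% and 21.1%. In jejunum LBP fell 8.06-fold from day 8 to day 55 (log2 difference −3.01, SE 0.35, adjusted p 6.79e-11) and a further 5.49-fold to day 176 (−2.46, SE 0.35, 8.30e-08, limma), in all 44.2-fold from day 8 to day 176. In ileum it fell 8.05-fold (−3.01, SE 0.35, 8.37e-11) and 3.71-fold (−1.89, SE 0.35, 2.96e-05, limma), in all 29.9-fold. Over that whole span 42.1% of all genes were called in jejunum and 41.7% in ileum. LY96 rose 3.23-fold in jejunum (1.69, SE 0.14, 2.04e-16) and 4.12-fold in ileum (2.04, SE 0.14, 1.04e-19, limma) from day 8 to day 55. From day 55 to day 176 it rose a further 1.67-fold in ileum (0.74, adjusted p 3.58e-05, limma), and in jejunum the difference was 0.01 with a 95% interval of −0.27 to 0.29.

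CD14 rose in ileum, 2.98-fold from day 8 to day 55 (1.58, SE 0.26, adjusted p 9.13e-07) and 1.71-fold to day 176 (0.77, SE 0.26, 0.0218, limma). The second step was lost without ileum T3 pool 2 of day 176, with 0.70 and an adjusted p of 0.0564. In jejunum CD14 differed by 0.17 and then −0.41, which did not pass (adjusted p 0.640 and 0.238, limma). MYD88 fell 2.79-fold in jejunum from day 55 to day 176 (−1.48, SE 0.19, 4.35e-09, limma). In ileum MYD88 had an adjusted p under the threshold at both steps but a fold under the 1.5 asked for (−0.52 and −0.58, adjusted p 0.0196 and 0.0157, limma), and over both steps together it fell 2.15-fold (−1.10, 1.34e-06).

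NOD2 fell 2.16-fold in jejunum from day 55 to day 176 (−1.11, SE 0.25, adjusted p 2.96e-04, limma), at a time when 8 of 11 arrays were well above background. This fall was −0.02 under 75th percentile scaling, which moved the median of all genes by 0.51, and −0.24 with the normexp background correction. In ileum NOD2 differences were −0.08 and −0.18 and did not pass (adjusted p 0.835 and 0.649, limma). NOD1 differences between ages lay between −0.36 and 0.38, none of which passed.

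The treatments were not alike in every age, so the steps were also taken over the T1 pools alone. LBP then fell from day 8 to day 55 in both tissues, while its step to day 176 no longer passed (−1.38 in jejunum and −1.92 in ileum, adjusted p 0.172 and 0.0525, limma). CD14 in ileum had 1.12 and 0.74 (adjusted p 0.0764 and 0.321, limma). MYD88 in jejunum changed its place in time, with a fall of −1.89 from day 8 to day 55 (adjusted p 0.00132) and −0.42 from day 55 to day 176 (adjusted p 0.556, limma).

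These steps differed between the 2 sets of names. By the scanner labels the steps from day 8 to day 55 under the names of the table set ileum against jejunum arrays of a single day. Under the names of the deposited table LBP differed by −0.76 in jejunum and −0.83 in ileum from day 8 to day 55, which did not pass (adjusted p 0.0826 and 0.282, limma), and fell by 1.70 and 4.90 from day 55 to day 176. LY96 then rose by 0.67 in jejunum from day 8 to day 55 (6.19e-05), fell by 0.66 to day 176 (6.74e-05, limma), and in ileum had 0.38 (0.181) and a rise of 2.79. CD14 had 1.15 and −1.55 in jejunum, both called, and −0.25 and 2.35 in ileum, the latter called.

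Other genes of the acute phase and of lipopolysaccharide handling are given beside these steps. From day 8 to day 55, 1 of 9 measured acute phase genes was higher and 2 were lower in jejunum, and 1 was higher and 4 were lower in ileum. Of all genes 30.3% were called at this step in jejunum and 40% in ileum. ITIH4, an inhibitor of the inter-alpha family, fell by 7.39 and 7.54 on the log2 scale and the haem carrier HPX fell by 5.04 and 5.31, whereas the iron carrier TF rose by 1.94 in jejunum and SAA3 rose by 2.27 in ileum. The 4 measured liver genes had a summed log2 signal of 11.1 to 15.1 in both tissues at day 8 and 7.62 to 9.06 at day 55, and APOA2, a lipoprotein of liver and gut, fell by 5.85 and 4.97. Their part in the fall of LBP was not tested.

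Beside the rise of LY96 and CD14, 6 of 7 measured T cell genes were higher at day 55 than at day 8 in both tissues, among them CD8A (3.37 in jejunum and 3.01 in ileum) and CD3G (3.00 and 2.36). Of 10 monocyte and macrophage genes 5 were higher in jejunum and 7 in ileum and none were lower, with CD86, a co-stimulator of T cells, at 2.75 and 2.57. These counts stand beside 30.3% of all genes called at this step in jejunum and 40% in ileum. Of the partners in lipopolysaccharide binding CD180, which resembles Toll-like receptor 4, rose by 1.68 in jejunum and 4.45 in ileum, and the scavenger receptors CD36 and SCARB1 fell in both tissues (CD36 by −0.75 and −2.49, SCARB1 by −0.99 and −2.16). The part of cell numbers in these values was not tested.

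Jejunum and ileum were compared within each age, on arrays normalized together for that age. At day 8 none of the 6 genes was called (0 of 6, beside 3.6% of all genes, limma with Benjamini-Hochberg), although LBP and MYD88 had an unadjusted p below 0.05. The differences, given as ileum minus jejunum throughout, were −0.75 for LBP (95% interval −1.40 to −0.10, adjusted p 0.128), −0.32 for CD14 (−1.02 to 0.38, 0.549), 0.32 for LY96 (−0.03 to 0.67, 0.215) and −0.56 for MYD88 (−1.10 to −0.02, 0.168). NOD1 and NOD2 had 0.43 and 0.13 (adjusted p 0.272 and 0.616, limma). Without ileum T1 pool 12 LBP was called, at −0.88 with an adjusted p of 0.0447, and MYD88 in ileum T1 pool 11, an array that stood apart, was 5.07 while all other ileum pools of that day lay at 7.32 or above. Without that pool the MYD88 difference was −0.33 (95% interval −0.62 to −0.04).

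At day 55, over all treatments, the genes of the lipopolysaccharide receptor were higher in ileum and the carrier and the adaptor lower, with 4 of 6 called beside 41% of all genes, and the adaptor MYD88 did not have the same direction in every treatment. CD14 had a lowest, median and highest log2 signal of 6.99, 7.51 and 8.21 in ileum and of 5.38, 6.21 and 7.11 in jejunum. It was 2.33-fold higher in ileum (1.22, SE 0.21, adjusted p 8.11e-05, limma), and 9 of 11 ileum pools lay above all jejunum pools. LY96 had 11.28, 11.40 and 12 in ileum and 10.45, 10.77 and 11.61 in jejunum, and was 1.60-fold higher (0.67, SE 0.12, 8.22e-05, limma) with overlapping pools.

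LBP was 1.72-fold lower in ileum at day 55 (−0.78, SE 0.30, adjusted p 0.0341, limma), with 7.50, 8.84 and 10.20 in ileum and 8.75, 9.52 and 10.89 in jejunum. This call was lost with slide as a random block (adjusted p 0.164) and on leaving out any 1 of 10 arrays (in ileum T1 pools 10 and 12, T2 pools 6 and 7 and T3 pools 2 and 4, and in jejunum T1 pool 11, T2 pool 5 and T3 pools 1 and 3). Over all left-out arrays its values lay between −0.91 and −0.61. MYD88 was 1.57-fold lower as a mean over the treatments (−0.65, SE 0.13, 2.97e-04, limma). This mean joined opposite signs, since in T1 the ileum pools had a mean of 6.50 against 6.08 in jejunum (0.41, 95% interval −0.03 to 0.86), in T2 7.07 against 8.04 (−0.97, −1.48 to −0.45) and in T3 7.31 against 8.72 (−1.40, −1.85 to −0.95). With slide as a random block the adjusted p of the mean was 0.274. NOD1 and NOD2 differed by 0.21 and 0.07 and did not pass (adjusted p 0.229 and 0.839, limma). Scaling by the 75th percentile moved the median of all genes by 0.41 at this age, and gave 0.47 for LY96, −0.35 for MYD88, 1.16 for NOD1 and 1.08 for NOD2. Under the names of the deposited table the differences of CD14, LY96, LBP and MYD88 turned to −1.61, −2.005, 2.99 and 0.52 at day 55, and at day 8 LY96 and LBP were called with −1.81 and 3.18. By the scanner labels these values set 2 ages of 1 tissue against each other. Those named day 55 are ileum of day 8 minus ileum of day 55. Those named day 8 are jejunum of day 8 minus jejunum of day 55, where 44% of all genes were called.

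At day 176 both lipopolysaccharide co-receptors stood well apart between the tissues, and 4 of 6 genes were called beside 26.5% of all genes. CD14 had a lowest, median and highest log2 signal of 7.16, 8.39 and 9.03 in ileum and 4.49, 5.93 and 7.10 in jejunum, without overlap, and was 5.11-fold higher in ileum (2.35, 95% interval 1.78 to 2.93, adjusted p 2.27e-06, limma). LY96 had 11.56, 11.80 and 13.08 in ileum and 10.25, 10.63 and 11.10 in jejunum, again without overlap, and was 2.59-fold higher (1.37, 1.07 to 1.67, 6.29e-07, limma). NOD2 had 3.82, 4.65 and 5.38 in ileum and 2.00, 3.67 and 4.54 in jejunum and was 1.98-fold higher (0.99, SE 0.23, 0.00264, limma), with 7 of 11 ileum pools above all jejunum pools.

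NOD1 also passed the test at day 176 (1.15, SE 0.30, adjusted p 0.00566, limma), with 2 of 11 ileum arrays and 0 of 11 jejunum arrays well above background, so that no fold is given. The calls of NOD1 and NOD2 were lost under 75th percentile scaling (0.78 and 0.54) and with the normexp background (0.14 and 0.23). LBP and MYD88 differed by −0.18 and 0.25 and did not pass (95% intervals −0.96 to 0.59 and −0.10 to 0.61). On the 1 slide that held both tissues of day 176, as ileum T1 and jejunum T3, CD14, LY96 and NOD1 were called with 1.59, 1.46 and 1.65 (adjusted p 0.0288, 7.12e-04 and 0.0387, limma), beside 10.1% of all genes, and NOD2 had 0.81 (0.202). That comparison also sets different treatments against each other.

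**Figure D2:**
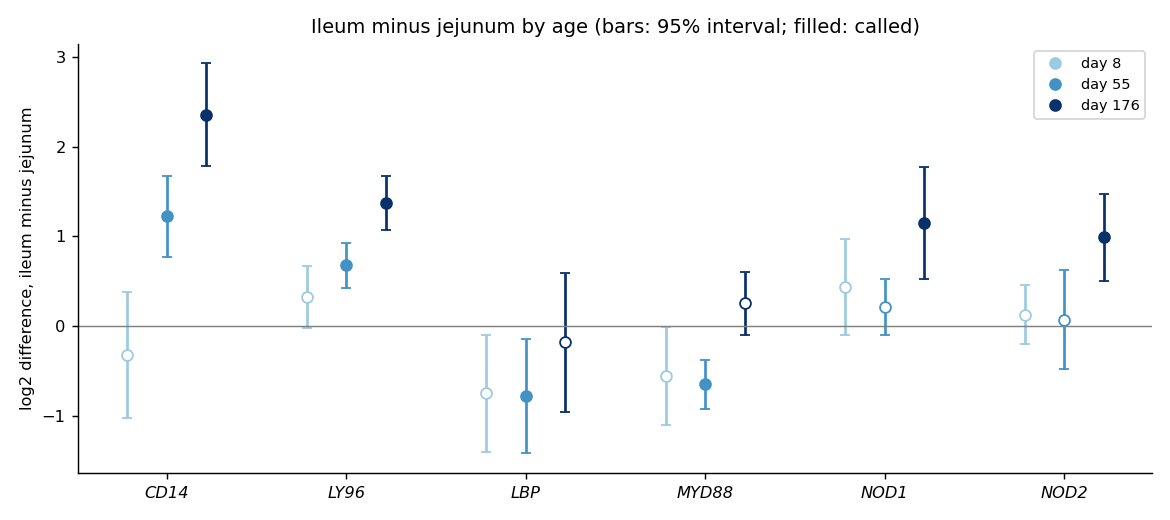
Log2 difference of ileum minus jejunum for each gene at days 8, 55 and 176, as the mean over T1, T2 and T3 with its 95% interval; filled points were called. CD14 is seen to pass from −0.32 at day 8 to 1.22 at day 55 and 2.35 at day 176, while LBP and MYD88 lie below 0 at days 8 and 55 as means over treatments, MYD88 in T1 of day 55 having 0.41.

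Whether the difference between the tissues itself changed with age was tested as a difference of differences over the 79 arrays, on the adjusted p alone. Of 18 values 8 passed, 1 of 6 between days 8 and 55 beside 27.2% of all genes, 3 of 6 between days 8 and 176 beside 15.4%, and 4 of 6 between days 55 and 176 beside 22.6%. The difference of CD14 grew by 1.40 from day 8 to day 55 and by 1.18 from day 55 to day 176 (adjusted p 0.00251 and 0.0160, limma), in all by 2.59 (2.88e-07). That of LY96 grew by 1.09 from day 8 to day 176 (2.95e-05) and by 0.73 from day 55 (0.00460, limma). For MYD88 the difference moved up by 0.82 and 0.90 over the same spans (0.0239 and 0.0105, limma). For NOD2 the 0.93 between days 55 and 176 lay at an adjusted p of 0.0494 and was lost without 53 of the 79 arrays left out singly. Under the names of the deposited table the change of CD14 from day 8 to day 55 was −1.40, and the changes of MYD88 were −0.13 and −0.25.

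CD14, LY96 and NOD2 were read by more than 1 probe, and the probes are given for the ileum against jejunum difference. At day 176 the CD14 probes A_72_P050971 and A_72_P756625 had 2.50 and 2.21 and the 4 LY96 probes between 1.18 and 1.64, all called. At day 55 the CD14 probes had 1.66 and 0.78, both called, and the LY96 probes between 0.57 and 0.90, with A_72_P584851 under the fold threshold. The NOD2 probes A_72_P077986 and A_72_P538218 had 1.05 and 0.92 at day 176, and 0.16 and −0.02 at day 55. The probes of a gene thus had the same direction wherever the gene was called between the tissues.

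**Figure D3:**
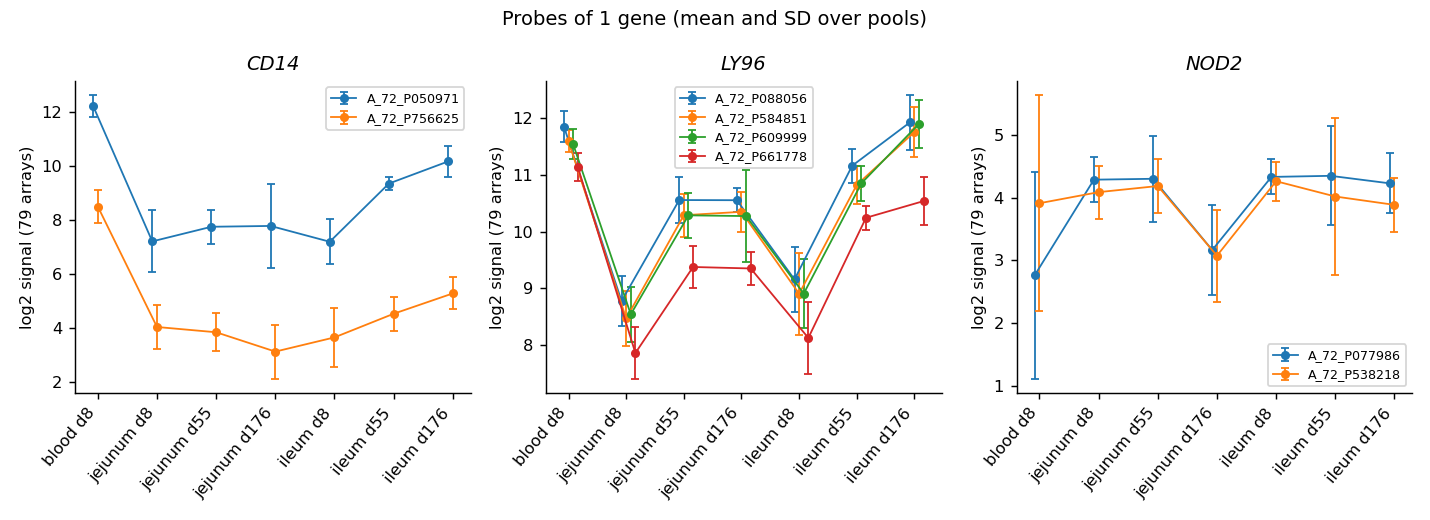
Mean log2 signal (normalized over 79 arrays) with SD over pools for each probe of CD14, LY96 and NOD2, over blood and both tissues at each day. The LY96 probes follow the same course, and both CD14 probes are highest in blood and higher at each later age in ileum, while in jejunum A_72_P050971 runs from 7.21 at day 8 to 7.78 at day 176 and A_72_P756625 from 4.04 to 3.13.

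Genes around these 6 in the same pathways are given beside the ileum against jejunum differences. Between these tissues 41% of all genes were called at day 55 and 26.5% at day 176. Of 11 partners in lipopolysaccharide binding 5 were higher and 4 lower in ileum at day 55, and 7 were higher and 2 lower at day 176, with a median log2 difference of 1.58 at that age against −0.05 over all genes. At day 176 TLR2 was higher by 3.34, CD180 by 2.91, CXCR4 by 2.69, ITGB2 by 2.62, CD55 by 2.23 and TLR4, the receptor that LY96 serves, by 1.58. At day 55 CD180, CD55 and LY86, the partner of CD180, were higher by 3.04, 2.89 and 2.85, and BPI, a neutrophil protein that neutralises lipopolysaccharide, was lower by −2.09. Under 75th percentile scaling and under the normexp background these lists had 7 and 5 higher and 4 and 4 lower at day 55, and 6 and 6 higher and 2 and 2 lower at day 176.

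Downstream, the 9 measured genes of the MyD88 pathway held 1 higher and 3 lower at day 55 (TRAF6 0.65, FOS −1.46, IRF7 −0.76 and IKBKG −0.74) and none called at day 176. The counts in this paragraph stand beside 41% of all genes called at day 55 and 26.5% at day 176. Of 13 cytokine and adhesion genes that these receptors are known to induce, 5 were higher and 1 lower at day 55 (higher were ICAM1 with 2.13, IL6 with 1.90, TNF with 1.45, IL12B with 1.02 and CCL2 with 0.64, lower was CXCL8 with −0.95). At day 176, 10 of the 13 were higher and none lower, with a median of 1.20 and with IL6 at 3.13, IL12B at 2.06 and IL10 at 1.98. Of 3 NF-kappaB genes NFKBIA, the inhibitor that holds the factor in the cytosol, was higher at both ages (0.92 and 0.59). Under 75th percentile scaling and the normexp background the cytokine and adhesion list had 8 and 3 higher at day 55 and 10 and 8 higher at day 176, and no gene named in these lists turned direction. At day 8 none of the genes in these lists was called, beside 3.6% of all genes, and the 3 measured genes of the TRIF pathway were called at no age.

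In the NOD pathway the peptide transporters that carry peptidoglycan fragments into cells were called in opposite directions. SLC15A2 was higher in ileum by 2.84 at day 55 and 1.67 at day 176, and SLC15A1, the transporter of enterocytes, was lower by −1.36 and −1.58. CASP1, the protease that matures interleukin 1, was lower by −0.78 and −0.87, and XIAP, a ubiquitin ligase that acts on RIPK2, was lower by −0.85 at day 55.

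Markers of immune and epithelial cells are given beside the same differences, with 41% of all genes called at day 55 and 26.5% at day 176. CD79A was higher in ileum by 3.99 at day 55 and 4.76 at day 176. Of the monocyte and macrophage genes 2 of 10 were higher and 2 lower at day 55 and 3 of 9 higher and none lower at day 176, with SPI1 higher by 1.23 and 1.69. Of 5 neutrophil genes 2 were higher at day 55 and 3 at day 176, among them PGLYRP1 with 3.30 and 3.01, and none were lower. FABP2, a fatty acid carrier of enterocytes, was lower by −1.92 and −2.98. The summed log2 signal of the monocyte and macrophage genes, over 79 arrays, was 15.4 to 16.2 in ileum and 16.4 to 17.5 in jejunum at day 55, and 15.9 to 17.05 against 15.4 to 17.3 at day 176. Such a sum is set mostly by the brightest genes of a list, and gene by gene 2 of 10 were higher and 2 lower at day 55. The summed log2 signal of the T cell genes was 11.3 to 12.001 in ileum and 10.98 to 12.02 in jejunum at day 55, and 11.3 to 12.1 against 11.2 to 12.1 at day 176. The part of these cells in the differences of CD14 and LY96 was not tested.

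Between treatments, most of the called differences were those of MYD88 at day 55. Over 21 comparisons, 3 for each tissue and day, 5 of 126 differences of the 6 genes were called, beside 2.16% over all genes, and all 5 were at day 55. They were 3 of MYD88 and 2 of NOD1. At days 8 and 176 and in blood no difference of the 6 genes was called, beside 0% to 1.59% of all genes. The latter shares were 0.0283% for T3 minus T2 in ileum of day 8 and 1.59% for T2 minus T1 and 1.16% for T3 minus T2 in jejunum of day 176. They were 0.0106% and 0.00354% for T2 and T3 minus T1 in ileum of day 176 and 0.00694% and 0.00347% in blood. The T2 and T3 comparisons with T1 use the same T1 pools and are not independent of each other.

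MYD88 in jejunum at day 55 had log2 signals of 5.99, 6.23, 5.78 and 6.33 in the T1 pools, 8.31, 8.12 and 7.68 in the T2 pools, and 9.05, 8.76, 8.50 and 8.56 in the T3 pools, on the arrays of that day. All T2 and T3 pools lay above all T1 pools, and all T3 pools above all T2 pools. With so few pools per group this can happen by chance, and its share over all genes was not counted. T2 was 3.87-fold higher than T1 (1.95, SE 0.23, adjusted p 1.44e-04, limma) beside 3.32% of all genes called, and both groups lay on the same slide. The log2 75th percentile of the raw signal was 8.54 to 8.805 on the T1 arrays, without overlap with the others. It was 9.17 to 9.30 on the T2 arrays and 8.99 to 9.35 on the T3 arrays. Its part in the MYD88 values was not tested. T1 pool 11 was among the arrays that stood apart. T3 was 6.20-fold higher than T1 (2.63, SE 0.21, adjusted p 7.39e-07, limma) beside 12.2% of all genes, on different slides. T3 and T2 differed by 0.68 (95% interval 0.19 to 1.16, adjusted p 0.193, limma), which did not pass, beside 0.86% of all genes.

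In ileum at day 55 MYD88 had 6.55, 6.25, 6.50 and 6.69 in T1, 7.11, 7.32 and 6.78 in T2, and 7.54, 7.81, 7.03 and 6.88 in T3. Here too all T2 and T3 pools lay above all T1 pools, and the share of all genes with such pools was again not counted. T3 was 1.76-fold higher than T1 (0.82, SE 0.21, adjusted p 0.0137, limma) beside 14.8% of all genes. The T3 arrays were those that lay alone on a slide with the lowest share of probes above background, so that slide and treatment cannot be told apart, and with the normexp background the difference was 0.54, under the fold threshold. T2 differed from T1 by 0.57 (0.09 to 1.06, adjusted p 0.460, limma), beside 0.08% of all genes, with both groups on 1 slide.

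The effect of T3 against T1 was smaller in ileum than in jejunum by 1.82 on the log2 scale (ileum effect minus jejunum effect −1.82, SE 0.30, adjusted p 0.00312, limma), beside 5.96% of all genes on the adjusted p. For T2 against T1 that difference was −1.38 with an adjusted p of 0.0905, beside 0.263% of all genes. No such difference of effect passed for any of the 6 genes at day 8, beside 0.00708% of all genes for T2 minus T1, 0.0354% for T3 minus T1 and 0.00708% for T3 minus T2. In jejunum of day 176 T2 minus T1 was 0.66 (adjusted p 0.184, limma) and 0.20 without the arrays that stood apart. Under the names of the deposited table the MYD88 differences of jejunum at day 55 are those of jejunum at day 8 (1.98 and 2.65 for T2 and T3 minus T1), and those of ileum at day 55 are those of jejunum at day 55.

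**Figure D4:**
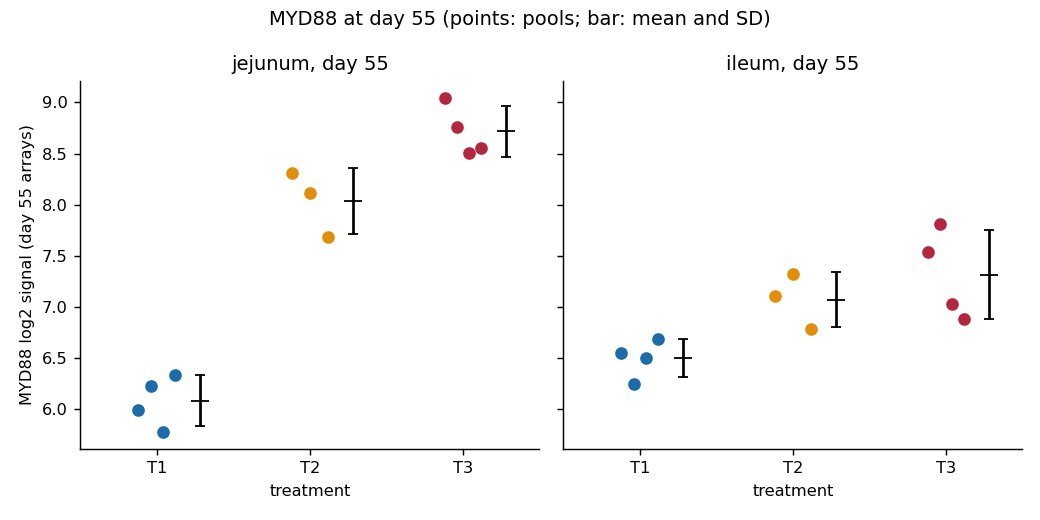
MYD88 log2 signal (normalized over the 22 arrays of day 55) in jejunum and ileum by treatment, 1 point per pool, with mean and SD beside them. In jejunum the T1 pools lie between 5.78 and 6.33 and all T2 and T3 pools at 7.68 or above; in ileum the T1 pools lie between 6.25 and 6.69 and the others at 6.78 or above.

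Other genes of the pathway are given beside MYD88 in jejunum at day 55. Of all genes 12.2% were called there between T1 and T3 and 3.32% between T1 and T2. From T1 to T3, 4 of 9 MyD88 pathway genes were higher and none lower (FOS 1.36, IKBKG 1.30, IRF7 0.95 and IKBKB 0.71), the NF-kappaB subunits RELA and NFKB1 were higher by 2.07 and 1.27, and TLR4 by 0.87. Of 13 cytokine and adhesion genes 0 were called. From T1 to T2, IKBKG, RELA and NFKB1 were higher by 1.22, 1.41 and 0.97 and ITGB2 was lower by −0.88. In ileum from T1 to T3 IKBKG, RELA and NFKB1 were higher by 0.68, 1.58 and 0.92, and IL1A was lower by −0.76.

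Of 8 measured T cell genes 4 were higher in jejunum T3 than T1 at day 55 (LCK 1.07, CD3D 1.02, CD2 0.94 and CD8A 0.77) and none were lower, beside 12.2% of all genes called. The summed log2 signal of the T cell genes, over the 79 arrays, was 10.98 to 11.56 in T1, 11.36 to 12.001 in T2 and 11.75 to 12.02 in T3, and that of the monocyte and macrophage genes was 16.95 to 17.45, 16.44 to 16.93 and 16.89 to 17.06. The part of these cells in the MYD88 values was not tested.

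NOD1 passed the test in ileum at day 55, where T3 minus T1 was 0.77 and T3 minus T2 was 1.02 (adjusted p 0.0372 and 0.0186, limma), the latter beside 8.26% of all genes. The log2 signals were 2.72, 3.25, 2.46 and 2.61 in T1, 2.24, 2.60 and 2.69 in T2 and 3.98, 2.79, 3.61 and 3.72 in T3. None of these 11 arrays had NOD1 well above background, so that no fold is given. The lowest raw signal on the T3 arrays was 19.6 to 29.2 and on the T1 and T2 arrays of the same tissue and day 2.61 to 3.88. With the normexp background both differences were near 0 (−0.04 and −0.06), and with the sow set as a block neither was called (adjusted p 0.0647 and 0.0545, limma). The sow sets of day 55 were taken from the pool numbers. T3 minus T1 was also lost without any 1 of T3 pools 1, 3 and 4 and T1 pools 9, 11 and 12, and T3 minus T2 without any 1 of T3 pool 1 and T2 pools 5 and 6.

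Some members had pools that did not overlap between treatments without passing the test. With 3 or 4 pools per group this can happen by chance, and its share over all genes was not counted. It also held for LY96 in ileum of day 55 (T3 below T1 and T2) and LBP in jejunum of day 176 (T2 below T1). In blood it held for NOD1 (T2 above T1) and NOD2 (T3 above T2), neither well above background there. In ileum of day 8 LY96 had 9.97, 9.77, 10.68 and 9.98 in T1, 8.95, 8.95 and 8.81 in T2, and 9.61, 8.64, 9.28 and 9.18 in T3, so that all T1 pools lay above all others. T2 minus T1 was −1.19 (95% interval −1.83 to −0.56, adjusted p 0.0729) and T3 minus T1 was −0.92 (−1.50 to −0.34, adjusted p 0.0785, limma), beside 0.418% and 1.07% of all genes called. With the sow set as a block both were called (−1.22 and −0.92, adjusted p 0.0310 and 0.0384, limma), and so they were without ileum T1 pool 12 (adjusted p 0.0344 and 0.0402). Without the arrays that stood apart they were −0.99 and −0.72 (adjusted p 0.109 and 0.172, limma).

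CD14 in jejunum of day 8 had 7.38, 6.88, 5.96 and 7.28 in T1, 5.31, 4.72, 5.05 and 5.24 in T2, and 7.72, 5.49, 6.25 and 6.45 in T3. All T2 pools lay below all pools of T1 and T3, which again has no share over all genes beside it. T2 minus T1 was −1.80 (95% interval −2.98 to −0.61, adjusted p 0.317, limma) and T3 minus T2 was 1.40 (0.21 to 2.58, adjusted p 0.981), beside 0.0212% and 0% of all genes called. Jejunum T2 pool 8, an array that stood apart, is the 5.24 among the T2 pools.

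The other differences with an unadjusted p below 0.05 lay at adjusted p between 0.116 and 0.709 (limma). LBP in jejunum of day 55 had T3 minus T1 of 1.23 (0.18 to 2.27, adjusted p 0.116, limma). LY96 in the same tissue and day had T2 minus T1 of −0.56 and T3 minus T1 of −0.44 (adjusted p 0.176 and 0.150, limma). In jejunum of day 176 CD14 had T3 minus T2 of 1.27 and NOD2 had T3 minus T1 of 0.87 (adjusted p 0.203 and 0.709, limma), and in ileum of that day LY96 had T2 minus T1 of −0.55 (0.575). In blood NOD2, below background, had T2 minus T1 of −0.89 and MYD88 T3 minus T1 of −0.40 (adjusted p 0.404 and 0.678, limma). NOD1 in jejunum of day 8, well above background on 1 of the 8 arrays compared, had T2 minus T1 of −1.13 (0.488).

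**Figure D5:**
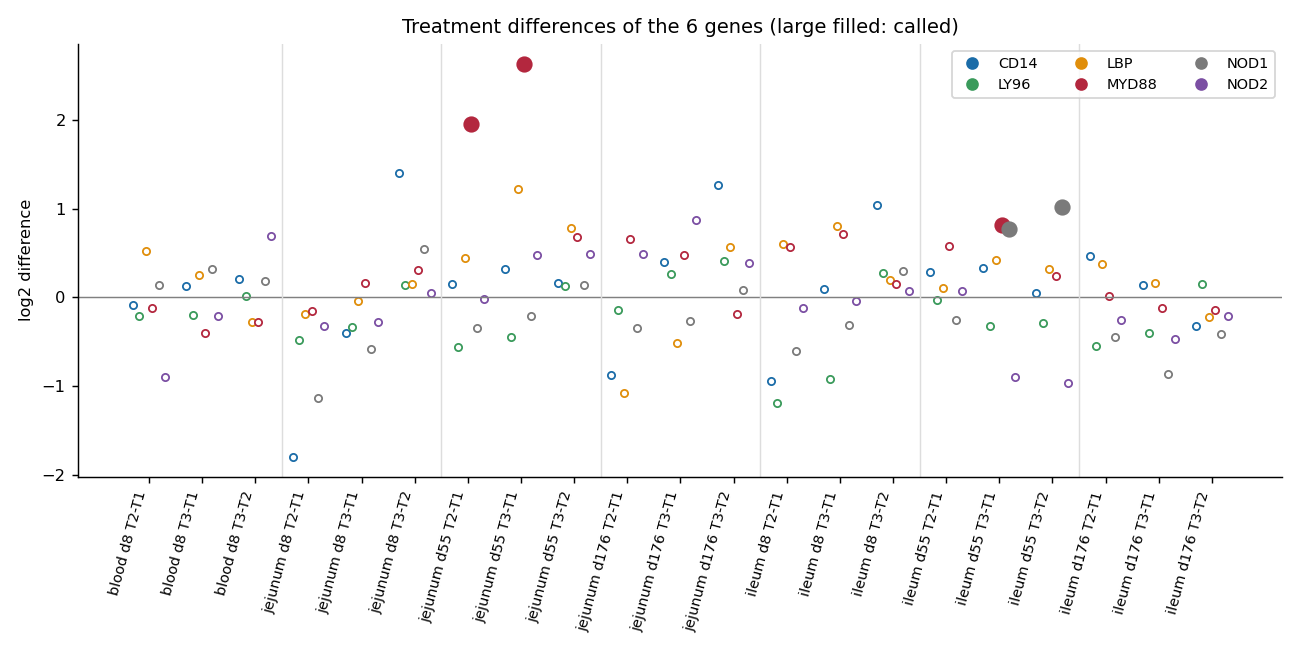
Log2 difference between treatments for the 6 genes in each tissue and day, 3 comparisons each; large filled points were called (adjusted p below 0.05 and a fold above 1.5). The 5 called points are those of day 55, MYD88 at 1.95 and 2.63 in jejunum and 0.82 in ileum and NOD1 at 0.77 and 1.02 in ileum.

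The genes whose group means ran most like each of the 6 were taken by Pearson's r over the 21 groups, among 2277 genes with a symbol. These groups share their tissues, ages and slides, so the values are a description. LBP was most like DIO1 (0.970), SLPI (0.969), LMO4 (0.967), ADIPOR2 (0.960) and TES (0.955). Among the genes most like CD14 were LY6G6F (0.975), RAP2B (0.970), ATP4B (0.969) and LEF1 (0.968). LY96 was most like CD69 (0.973), an early activation marker of lymphocytes, followed by BIRC5 (0.950), SNRPE (0.948), ZPBP2 (0.935) and CRYBB1 (0.932).

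MYD88 was most like MAVS (0.971), the mitochondrial adaptor of the sensors of viral RNA, and then IL4R (0.953), ARF1 (0.951), BAG6 (0.929) and SLC30A6 (0.904). NOD2 reached 0.747 with ARF2, 0.746 with PKMYT1, 0.745 with THOP1, 0.729 with BDNF and 0.726 with MSX1, and NOD1 0.729 with APPL1, 0.669 with RPS20, 0.665 with RPS23, 0.661 with PMAIP1 and 0.644 with CCNG1. Over the 18 tissue groups alone r was 0.445 to 0.627 for the genes named with NOD1, 0.672 to 0.845 for those with NOD2 and 0.882 to 0.928 for those with CD14. NOD1 was well above background on only 5 of 79 arrays. Among the 6 genes CD14 and LY96 had r of 0.75 over the 21 groups and 0.76 over the 18 tissue groups, LY96 and LBP −0.88 over each, and LBP and MYD88 0.46 and 0.79.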

How the data were processed

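The intensity of each spot was deposited by the authors as Agilent Feature Extraction 10.7.3.1 wrote it, background-corrected and not normalized between arrays. Flags for outliers and for signal well above background were deposited beside it. The authors also deposited a log2 table, quantile normalized and centred per probe; 34 of its 79 columns (blood and day 176) matched the array they are named for, and 45 (tissues of days 8 and 55) matched arrays of another tissue or day. The labels of the scanner files were used. The table under its own names was an alternative, without ileum minus jejunum at days 8 and 55, which it centres apart, and so were the arrays under the tissue and day of the matching column (1 array without such a column left out).

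Signals under 1 were set to 1 before the log2 was taken, control and outlier spots were dropped, and probes without a value on any array of a fit were left out (29 to 2198 of 43603). Quantile normalization was performed within each age over both tissues, within blood, and over all 79 arrays for ages and blood. Probes reaching the 20th percentile on all arrays of at least 1 group were kept and averaged per gene, giving 28236 to 32915 genes. A symbol was found through RefSeq for 5461 probes (12.5%). Groups were fitted with limma 3.58.1 (statmod 1.5.0) in R 4.3.3. A gene was called at an adjusted p (Benjamini-Hochberg, over all genes of a comparison) below 0.05 and a fold above 1.5; differences of differences on the adjusted p alone. The fits were tested on simulated data. Raw p-values set a difference between groups against the spread between pools within groups, taken over all groups of a fit. The number of arrays limits their precision. Each group lay on 1 slide, so that this spread holds no variation between slides.

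The pools of day 8 pair across treatments by sow set, as the study's pool list gives. Arrays of the same set deviated together, with a mean correlation of 0.0986 for jejunum, 0.0733 for ileum and 0.143 for blood, against −0.0324, −0.0239 and −0.0476 between different sets. Jejunum and ileum arrays of the same pool also deviated together at day 8, with a mean correlation of 0.176 against −0.0593 between different pools. The main fit took them as independent. No block is named in the study's methods, and the sow set and the pool were alternatives here. With the pool as a block 5.79% of all genes were called between the tissues at day 8, beside 3.6% without it.

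The 6 genes, the pathway lists and the marker lists were chosen with earlier results of these data known. All 6 genes are named, of each list at most the 6 called genes with the largest difference, and the 5 genes most like each. Some genes that this rule names are not reported here. Alternatives tried were 75th percentile scaling, normexp background (offset 50, on median signals), no filter, a detection filter, an intensity trend, the authors' table, blocks for sow set, pool and slide, single probes, the 2-way test of the methods, each tissue alone and each array left out. Arrays standing apart (median Spearman correlation more than 0.03 under that of their tissue and day), T1 pools alone and the names of the matching columns were alternatives chosen after seeing the data.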

Additional observations from a re-analysis of the deposited data

Results flagged for a closer look

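In 4 of 96 groups of 4 pools a single pool lay far from the others, and chance gives about 1 in 20. LBP in blood T3 had its lowest value, 2.77, in pool 2, and the nearest pool was at 3.88. MYD88 in ileum T1 of day 8 had 5.07 in pool 11 and 7.50 in the nearest pool. NOD1 in jejunum T3 of day 176 had 3.39 in pool 3 and 1.92 in the nearest pool, and NOD2 in blood T2 had 1.38 in pool 7 and 1.09 in the nearest pool, both not well above background.

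Of 72 differences of differences tested with limma, 9 had an adjusted p below 0.05. The effect of T3 against T1 on MYD88 at day 55 differed between ileum and jejunum by −1.82. The ileum minus jejunum difference changed with age for CD14 by 1.40 (day 8 to day 55), 2.59 (day 8 to day 176) and 1.18 (day 55 to day 176), for LY96 by 1.09 and 0.73 and for MYD88 by 0.82 and 0.90 (each day 8 to day 176 and day 55 to day 176), and for NOD2 by 0.93 (day 55 to day 176).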

How the results depend on the processing

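Over 84 values and 902 alternatives, 800 kept their direction and their side of the threshold, 59 lost the call, 20 gained one and 23 turned direction; 34 of the 800 changed sign while called in neither setting. The cause was not tested. Called differences between treatments numbered 5, and 2 with the normexp background; leaving out single arrays gave 3 to 7, with 3 without ileum T3 pool 1 of day 55 and 7 without ileum T1 pool 12 of day 8. Between ileum and jejunum, day 8 gave 0, and 0 to 1 with single arrays left out (1 without ileum T1 pool 12). Day 55 gave 4, 2 with normexp, 2 with slide as a random block and 3 to 4 with arrays left out. Day 176 gave 4, 2 under 75th percentile scaling, 2 with normexp and 4 to 4 with arrays left out. Between ages jejunum gave 5 (5 to 5 with arrays left out) and ileum 6 (5 to 7), or 3 over the T1 pools alone. Blood against tissue gave 9 (9 to 10), pairs of tissue and age 78 (75 to 80), differences in treatment effect 1 (1 to 2, with 2 without ileum T3 pool 2 of day 55; 4 under 75th percentile scaling), and changes of the tissue difference with age 8 (7 to 8). With the sow set as a replicate block 5 treatment differences were called, the 2 of NOD1 being lost and 2 of LY96 at day 8 gained; with the pool as a replicate block 0, 4 and 4 genes were called between the tissues at days 8, 55 and 176 and 9 between blood and tissue.

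The direction turned for NOD1 in ileum of day 55 with normexp (T3 minus T1 −0.0389, T3 minus T2 −0.0588), for NOD2 against blood under 75th percentile scaling (−0.92 in jejunum, −1.01 in ileum) and normexp (−0.16 and −0.14), and under 75th percentile scaling for NOD1 from day 55 to day 176 in jejunum (0.59), for NOD1 and NOD2 from day 8 to day 55 in ileum (0.65 and 0.61) and for the change of the NOD2 tissue difference from day 55 to day 176 (−0.53). That scaling moved the median of all genes by 0.51 in jejunum and 0.545 in ileum over those steps. In these settings LBP, CD14, LY96 and MYD88 turned direction in no called value. Signals near background limit NOD1 and NOD2.

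Under the tissue and day names of the deposited table's columns, 2 genes were called between the tissues at day 8, 3 at day 55, 8 values between ages in jejunum, 4 in ileum, 2 differences in treatment effect and 5 treatment differences. Of all genes 44% were called between the tissues at day 8 under these names, beside 3.6% under the scanner labels. Shares over all genes for the other counts are not given here. By the scanner labels the tissue differences of days 8 and 55 under these names set 2 ages of 1 tissue against each other. The direction turned for ileum minus jejunum of LY96 (−1.81 at day 8, −2.005 at day 55), LBP (3.18 and 2.99), CD14 (−1.61 at day 55) and MYD88 (0.52 at day 55), for LY96 from day 55 to day 176 in jejunum (−0.661), for CD14 from day 8 to day 55 in ileum (−0.25), for NOD1 T3 minus T1 in ileum of day 55 (−0.25), and for the change of the tissue difference of CD14 from day 8 to day 55 (−1.40) and of MYD88 to day 176 from day 8 (−0.13) and from day 55 (−0.25). In the table itself 7 treatment differences were called, NOD1 T3 minus T1 in ileum of day 55 had −0.31, and LBP T3 minus T1 in jejunum of day 8 had 1.23. The day 176 results of the tissues do not depend on these names.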
